A study of Homo sapiens with 6 samples.

Results

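The nuclear pore genes described here are the 29 genes, of 14884 tested by name on these arrays, whose annotated symbol is NUP followed by a digit or one of SEH1L, RANBP2, POM121, POM121C, NDC1, RAE1 and AHCTF1. Antisense transcripts and pseudogenes were left out, and where a gene had several probe sets the probe set was chosen by the highest mean over all 6 arrays. That choice concerned 1 gene, NUP214, and it used the level over both groups together, not the difference between them. No probe set was named SEC13, AAAS, TPR or NUP62 in the annotation used here, and these genes were not analysed. All 29 genes belong to 6 rings or parts of the pore: 5 to the cytoplasmic filaments, 8 to the outer ring, 5 to the inner ring, 4 to the central channel, 5 to the membrane ring and 2 to the nuclear basket.

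The nuclear pore complex is the channel through which RNA, proteins and small molecules pass the nuclear envelope. Inner and outer rings form its scaffold, membrane proteins anchor that scaffold where the inner and outer nuclear membranes meet, and proteins rich in phenylalanine-glycine (FG) repeats fill the channel and bind transport receptors. Filaments on the cytoplasmic side and a basket on the nuclear side take part in export and import. In dividing animal cells the complex comes apart in mitosis and is rebuilt on chromatin afterwards, and new pores are also inserted during interphase.

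Expression was measured in MDA-MB-231, a human cell line established from a triple-negative breast carcinoma. One group was labelled NR1D1 KO, a knockout of NR1D1, which encodes the circadian repressor REV-ERBα, and the other Control, with 3 GeneChip arrays each. Every sample of both groups had received 200 µM H2O2 over 72 h, so a response to peroxide cannot be told apart from a difference that was there before it. The labels call the arrays biological replicates but give no separate cultures or clones, nor how the knockout was made, so the p-values cover only the spread among the 6 arrays, part of which may be technical.

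No probe set was named NR1D1, so the knockout was not checked from its transcript. The array medians lay between 5.18 and 5.22 on the log2 scale, and arrays correlated at 0.991 to 0.993 within groups and at 0.982 to 0.985 between them over the genes tested. VIM, a mesenchymal marker that this line carries, averaged 9.35 in NR1D1 KO and 9.01 in control arrays, and the hormone receptor genes ESR1 and PGR, low in this line, averaged 5.19 and 4.05 in NR1D1 KO and 5.19 and 3.99 in control arrays (log2). None of 3 measured leukocyte and 3 measured fibroblast markers passed the limma test. The 1 with an unadjusted p under 0.05 was CD14, which averaged 4.66 in NR1D1 KO and 4.95 in control arrays (adjusted p of 0.085). Of 6 measured markers of the line VIM, EPCAM and KRT18 rose and CD44 fell, and each of these calls was lost in at least 5 of the 6 fits that left out 1 array. Without detection calls, a level near the array median was not called absent.

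Of the 29 pore genes 8 rose in NR1D1 KO cells and none fell (limma, adjusted p under 0.05, Benjamini-Hochberg over all 14884 genes). Over all genes tested 4.74% were called higher and 4.74% lower, or 9.49% in either direction. The rises were NUP210 of the membrane ring, NUP188, NUP205 and NUP155 of the inner ring, NUP160 and NUP85 of the outer ring, and NUP88 and NUP214 of the cytoplasmic filaments, by 1.25-fold to 2.09-fold. The log2 change (NR1D1 KO minus control) was above 0 for 23 of 29 pore genes, or 79.3%, beside 51.0% of all genes tested, and its median was 0.22, beside 0.0039 for all genes. The 3 NR1D1 KO values lay above all 3 control values for 18 pore genes and below them for 1, RANBP2, where 15.1% of all genes tested were so placed above and 13.6% below. At an unadjusted p of 0.05, 15 pore genes were higher and 1, again RANBP2, was lower. The share of all genes at that threshold was not counted, so these 2 counts have no background beside them.

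The count of rises fell whichever array was left out. It was 4 without control replicate 1, 4 without control replicate 2, 3 without control replicate 3, 4 without NR1D1 KO replicate 1, 3 without NR1D1 KO replicate 2 and 5 without NR1D1 KO replicate 3, and none fell in any of these fits. Over all genes the number called higher was 338, 431, 336, 518, 356 and 475 in the same order, against 706 with all arrays. NUP210, NUP188 and NUP160 passed in all 6 of these fits. The groups also differed in genes of cell division. Of 16 measured division markers 11 rose, or 68.8% beside 4.74% of all genes, and none fell. The mean log2 level of these markers lay between 9.30 and 9.42 in NR1D1 KO arrays and between 8.89 and 9.004 in control arrays. The rises among these markers were 6 without control replicate 1 or 3, 7 without control replicate 2 or NR1D1 KO replicate 2, 10 without NR1D1 KO replicate 1 and 8 without NR1D1 KO replicate 3. Their part in the change of the pore genes was not tested, and in bulk RNA a larger share of dividing cells and more transcript per cell cannot be told apart.

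**Figure D1:**
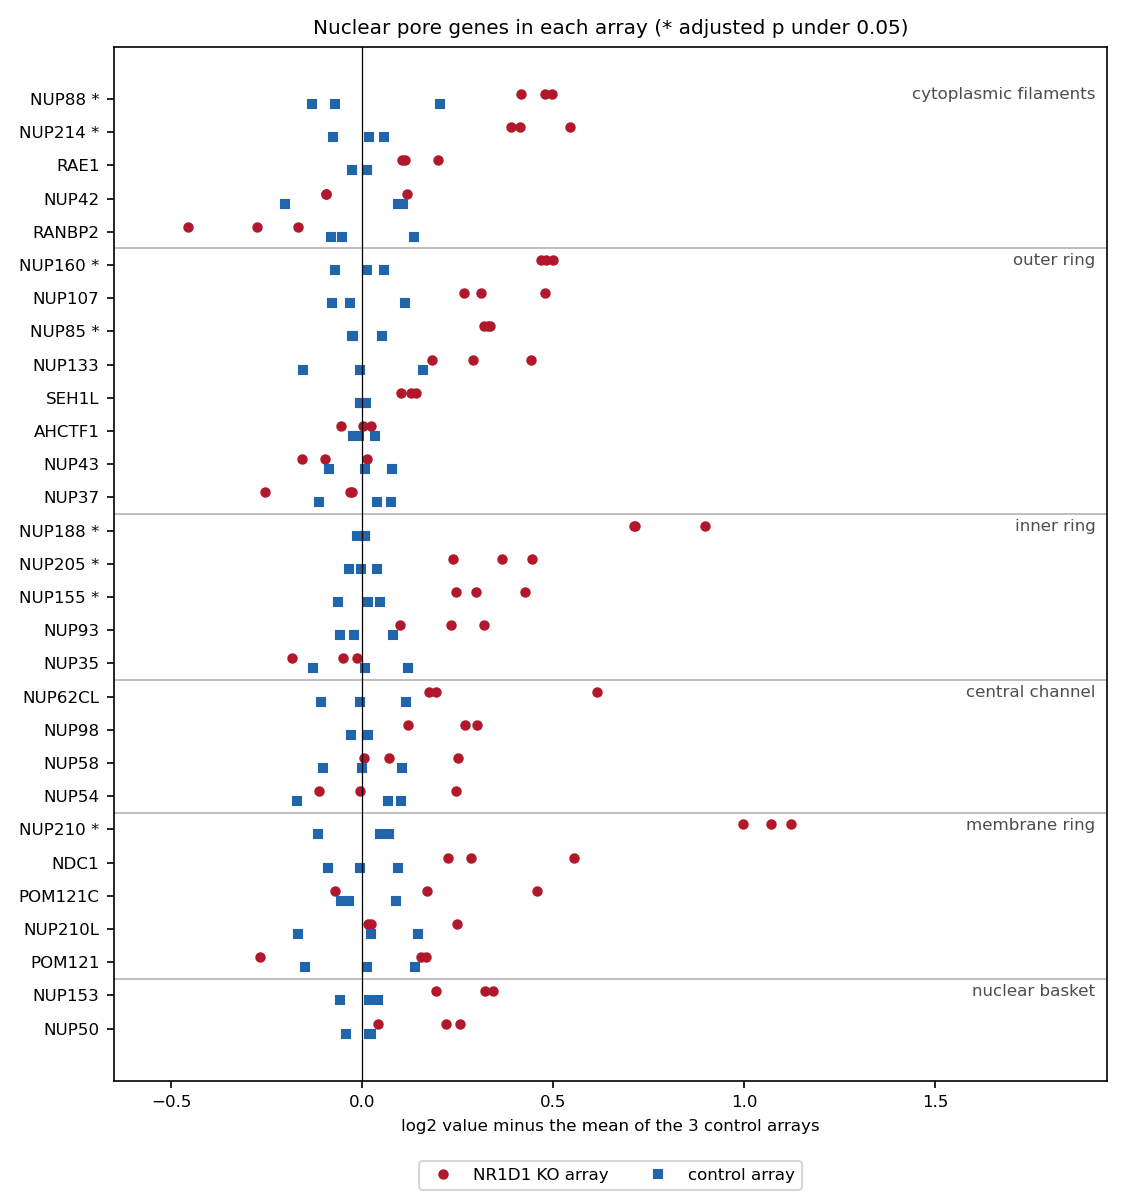
Each point is 1 array, as its log2 value minus the mean of the 3 control arrays of that gene (x axis), for the 29 pore genes (y axis) grouped by part of the pore, with NR1D1 KO arrays as circles above control arrays as squares and an asterisk at an adjusted p under 0.05. NUP210 and NUP188 stand farthest to the right, and RANBP2 is the gene whose 3 NR1D1 KO arrays all lie left of its control arrays.

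The promoters of the 3 genes that passed in every fit are shown because their calls did not depend on 1 array. Sequences are RefSeq's of build GRCh38.p14, from 250 bases before to 50 after an annotated start, 5′ to 3′ on the gene's strand. NUP210 lies at chr3:13420273-13420572 (minus strand), NUP188 at chr9:128947449-128947748 (plus strand) and NUP160 at chr11:47848301-47848600 (minus strand, the first listed of 2 windows). Capitals mark CCGGAAG, the core bound by ETS factors, and AGGTCA, the hexamer that nuclear receptors such as REV-ERBα and the ROR proteins bind.
NUP210: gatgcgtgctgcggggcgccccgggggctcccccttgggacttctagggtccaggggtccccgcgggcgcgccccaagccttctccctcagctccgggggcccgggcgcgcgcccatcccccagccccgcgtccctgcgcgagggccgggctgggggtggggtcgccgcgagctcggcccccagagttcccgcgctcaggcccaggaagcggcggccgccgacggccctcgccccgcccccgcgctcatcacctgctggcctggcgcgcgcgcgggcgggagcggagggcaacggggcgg
NUP188: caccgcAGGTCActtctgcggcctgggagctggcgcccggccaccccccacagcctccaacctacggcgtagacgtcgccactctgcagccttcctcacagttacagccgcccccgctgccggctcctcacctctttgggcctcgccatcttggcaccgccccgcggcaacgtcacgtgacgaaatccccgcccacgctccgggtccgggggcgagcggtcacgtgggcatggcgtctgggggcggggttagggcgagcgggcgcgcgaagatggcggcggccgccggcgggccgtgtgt
NUP160: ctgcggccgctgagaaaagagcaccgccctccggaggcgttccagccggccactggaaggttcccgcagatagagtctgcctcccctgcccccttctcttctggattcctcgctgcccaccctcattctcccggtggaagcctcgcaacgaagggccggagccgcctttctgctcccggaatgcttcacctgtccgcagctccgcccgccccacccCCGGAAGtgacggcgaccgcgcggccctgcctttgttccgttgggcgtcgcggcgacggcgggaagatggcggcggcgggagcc
NUP160 held CCGGAAG, which began 34 bases before the start, NUP188 held AGGTCA, which began 244 bases before it, and NUP210 held neither. All 3 windows were rich in G and C, at 81.3%, 73.0% and 69.7% of bases for NUP210, NUP188 and NUP160, beside a median of 63.3% over the windows of pore genes and 58.7% over all windows.

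Promoter windows were found for 27 of the 29 pore genes, 35 windows in all since 7 genes had several that can overlap, and each motif was searched on both strands. AHCTF1 and NUP43 had no window. CCGGAAG was in 34.3% of the windows of pore genes and in 10.3% of all 35116 windows. It occurred in the promoters of 12 pore genes, among them 3 of the 8 that rose (NUP160, NUP214 and NUP88). AGGTCA was in 22.9% of the windows of pore genes, against 13.8% of all, and in those of 3 genes that rose (NUP188, NUP205 and NUP214). The extended REV-ERB element was searched as ANTAGGTCA, which contains AGGTCA, and as ANTGGGTCA, which does not. The first was in 0 of 35 windows of pore genes, against 0.49% of all, and the second in 1, that of NUP93, against 0.786% of all. CCAAT was in 45.7% of the windows of pore genes, against 34.6% of all. It occurred in the promoters of 4 genes that rose (NUP205, NUP214, NUP85 and NUP88). TTTGAA, the cell cycle homology region of genes expressed late in the cycle, was in 28.6%, against 15.2% of all. TTTGAA occurred in the promoter of 1 gene that rose, NUP205. The E2F sites TTTCCCGC and TTTGGCGC and the NRF1 core GCGCATGCG were searched as well. TTTCCCGC was in 0 of 35 windows of pore genes, against 1.63% of all. TTTGGCGC was in 1 (2.86%), that of NUP155, which rose, against 0.652% of all. GCGCATGCG was in 2 (5.71%), those of NUP107 and NUP50, which were not called, against 1.917% of all. These matches describe letters in short windows and not bound sites.

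Genes of the membrane ring, which anchors the pore in the nuclear envelope, were led by NUP210. It encodes gp210, a membrane glycoprotein with most of its mass between the inner and outer nuclear membranes. NUP210 measured 7.18, 7.31 and 7.25 in NR1D1 KO arrays, against 6.23, 6.25 and 6.07 in control arrays (log2). The groups lay far apart, and the 3 arrays of each stood close together. Its means were 7.25 ± 0.0627 and 6.18 ± 0.102 (SD, n = 3 each), a 2.09-fold rise with a log2 change of 1.06 ± 0.0865 (SE; limma adjusted p = 0.000255). NDC1, a multi-spanning protein that holds scaffold nucleoporins at the membrane, measured 9.65, 9.98 and 9.72 in NR1D1 KO arrays, against 9.34, 9.52 and 9.42 in control arrays. Its groups did not overlap, but NR1D1 KO replicate 2 stood above the others and the adjusted p was 0.0812 for a log2 change of 0.35 (95% interval 0.11 to 0.60). It passed with array weights (limma adjusted p of 0.0474), with a trend and robust prior (0.0218) and without the dimmest 25% of genes (0.0455). POM121, a membrane protein of early pore assembly, and its near-identical copy POM121C measured log2 changes of 0.017 and 0.19 with overlapping groups. Probes for one can read the other, so these values are uncertain, and each had a wider spread among NR1D1 KO arrays (SD 0.248 and 0.265) than the median SD of pore genes there (0.107). NUP210L, a paralog of NUP210 known mainly from testis, measured 4.495 ± 0.132 in NR1D1 KO and 4.40 ± 0.159 in control arrays (SD, n = 3 each), the 1 pore gene below the array medians, and its adjusted p was 0.676.

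Of the 5 genes of the inner ring, the scaffold that lines the membrane and holds the channel proteins, 3 rose: NUP188, NUP205 and NUP155. NUP188 and NUP205 encode large, related scaffold proteins. NUP188 measured 10.27, 10.09 and 10.09 in NR1D1 KO arrays, against 9.38, 9.36 and 9.38 in control arrays (log2). The control arrays were nearly identical, and every NR1D1 KO array stood above them, for a 1.71-fold rise and a log2 change of 0.78 ± 0.0838 (SE; limma adjusted p = 0.0011). NUP205 measured 9.69, 9.61 and 9.48 in NR1D1 KO arrays, against 9.24, 9.29 and 9.21 in control arrays, a 1.27-fold rise (adjusted p = 0.0378). The 95% interval of its log2 change, 0.16 to 0.54, lay below that of NUP188, 0.58 to 0.97, though the difference between the 2 genes was not tested.

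NUP155, a scaffold protein that touches the membrane, measured 10.55, 10.42 and 10.37 in NR1D1 KO arrays, against 10.14, 10.06 and 10.17 in control arrays. The groups did not overlap, and the 1.25-fold rise had an adjusted p of 0.0493. NUP93, which links inner ring and channel, had a log2 change of 0.22 (95% interval 0.012 to 0.42) and missed the threshold with an adjusted p of 0.193. NUP35, a membrane-binding adaptor, measured 6.43 ± 0.09 in NR1D1 KO and 6.51 ± 0.125 in control arrays (SD, n = 3 each), with overlapping groups and an adjusted p of 0.673. Over the 5 genes the median log2 change was 0.32. NUP155 missed the threshold without any 1 of the 6 arrays (adjusted p from 0.0685 to 0.146), and NUP205 without any 1 array other than NR1D1 KO replicate 3 (0.0857 to 0.132).

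The outer ring is built from a Y-shaped complex whose long scaffold proteins are NUP160, NUP107, NUP133 and NUP85, with the smaller propeller proteins SEH1L, NUP43 and NUP37 bound to them. NUP160 and NUP85 rose. NUP160 measured 8.84, 8.81 and 8.83 in NR1D1 KO arrays, against 8.27, 8.40 and 8.36 in control arrays (log2). The NR1D1 KO arrays nearly coincided, and the 1.40-fold rise had a log2 change of 0.48 ± 0.0768 (SE; limma adjusted p = 0.00663). NUP85 measured 8.06, 8.07 and 8.05 in NR1D1 KO arrays, against 7.71, 7.79 and 7.71 in control arrays. It too was tight in both groups, with a 1.25-fold rise (adjusted p = 0.0298), but it missed the threshold without any 1 array (0.0603 to 0.113).

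NUP107 and NUP133, which form the stem of the complex, had NR1D1 KO values above every control value without passing the test. NUP107 measured 7.96, 8.18 and 8.01 in NR1D1 KO arrays, against 7.62, 7.81 and 7.66 in control arrays, with a log2 change of 0.35 and an adjusted p of 0.0529. It passed with array weights (limma adjusted p of 0.0324), with a trend and robust prior (0.0182) and without the dimmest 25% of genes (0.0277). NUP133 had a log2 change of 0.30 and an adjusted p of 0.136, with SDs of 0.131 in NR1D1 KO and 0.157 in control arrays. The propeller genes SEH1L, NUP43 and NUP37 measured log2 changes of 0.12, -0.080 and -0.10, with adjusted p of 0.366, 0.652 and 0.597. AHCTF1, which encodes ELYS, the protein that brings the Y complex to chromatin as pores are rebuilt after mitosis, measured 9.47 ± 0.0403 in NR1D1 KO and 9.48 ± 0.0301 in control arrays (SD, n = 3 each). Its 95% interval, -0.18 to 0.16, leaves out a change as large as that of NUP160. The median log2 change over the 8 genes of this ring was 0.21.

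On the cytoplasmic side NUP88 and NUP214 rose, while RANBP2 measured lower. NUP88 and NUP214 encode partners at the base of the filaments that take part in export of messenger RNA and of cargo bound to the export receptor XPO1. NUP214 measured 9.46, 9.61 and 9.48 in NR1D1 KO arrays, against 9.12, 8.99 and 9.08 in control arrays (log2). The groups were well separated, with a 1.37-fold rise (limma adjusted p = 0.0134). Its second, dimmer probe set measured 8.41 ± 0.224 in NR1D1 KO and 7.91 ± 0.107 in control arrays (SD, n = 3 each), a log2 change of 0.50 beside 0.45, though the probe sets read 1 gene and are no independent support. NUP88 measured 9.02, 9.11 and 9.09 in NR1D1 KO arrays, against 8.48, 8.81 and 8.54 in control arrays. Control replicate 2 stood above the other control arrays but below all NR1D1 KO arrays, and the rise was 1.38-fold (adjusted p = 0.0281). NUP214 missed the threshold without control replicate 2 (0.053), control replicate 3 (0.0512) or NR1D1 KO replicate 2 (0.0524), and NUP88 without any 1 array other than control replicate 2 (0.0583 to 0.102).

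RANBP2, the main filament protein and a SUMO ligase that docks the Ran GTPase activator, measured 8.38, 8.56 and 8.67 in NR1D1 KO arrays, against 8.76, 8.98 and 8.79 in control arrays. All its NR1D1 KO arrays lay below the control arrays, with a log2 change of -0.30 (95% interval -0.54 to -0.062) and an adjusted p of 0.124. Near-identical copies of this gene elsewhere in the genome make the value uncertain. RAE1, an export factor that binds NUP98, had a log2 change of 0.14 (adjusted p of 0.336), and NUP42, a partner of the export factor GLE1, one of -0.024 (adjusted p of 0.931). The median over the 5 genes was 0.14.

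None of the 4 genes of the central channel and 2 of the nuclear basket passed the test, although all 6 had log2 changes above 0 and NUP98, NUP62CL and NUP153 an unadjusted p of 0.0229, 0.0358 and 0.00749. NUP98 and NUP153 passed with a trend and robust prior in limma (adjusted p of 0.039 and 0.0078), and NUP153 also with quantile normalization (0.0459) and without the dimmest 25% of genes (0.0369). NUP98, whose precursor is cleaved into the FG protein NUP98 and the Y complex protein NUP96, measured 9.62, 9.80 and 9.77 in NR1D1 KO arrays, against 9.47, 9.52 and 9.52 in control arrays (log2). The groups did not overlap, and the log2 change of 0.23 had a limma adjusted p of 0.137. NUP62CL, a paralog of the channel protein NUP62, measured 6.28, 5.84 and 5.86 in NR1D1 KO arrays, against 5.66, 5.55 and 5.78 in control arrays. NR1D1 KO replicate 1 stood apart, the adjusted p was 0.179, and the log2 change of 0.33 was 0.18 without that array. NUP58 and NUP54, which form the channel's FG subcomplex with NUP62, had log2 changes of 0.11 and 0.042, adjusted p of 0.573 and 0.886, and overlapping groups.

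In the basket, NUP153, which tethers the basket to the pore and is needed for pores inserted in interphase, measured 10.98, 11.01 and 10.86 in NR1D1 KO arrays, against 10.60, 10.68 and 10.70 in control arrays (log2). The NR1D1 KO arrays all lay above the control arrays, and the log2 change of 0.29 (95% interval 0.10 to 0.47) had a limma adjusted p of 0.0673. NUP50, a mobile cofactor of importin-dependent import, measured 6.64, 6.67 and 6.46 in NR1D1 KO arrays, against 6.38, 6.44 and 6.44 in control arrays. NR1D1 KO replicate 3 lay just above the highest control array, and the adjusted p was 0.290. Across the 6 parts, the median log2 change was 0.32 in the inner ring, 0.23 in the basket, 0.21 in the outer ring, 0.19 in the membrane ring, 0.17 in the channel and 0.14 in the filaments. The membrane ring median was 0.31 without NR1D1 KO replicate 3 and 0.13 without NR1D1 KO replicate 1. With 2 to 8 genes each, and with ranges that overlap, these medians describe the rings and do not order them.

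**Figure D2:**
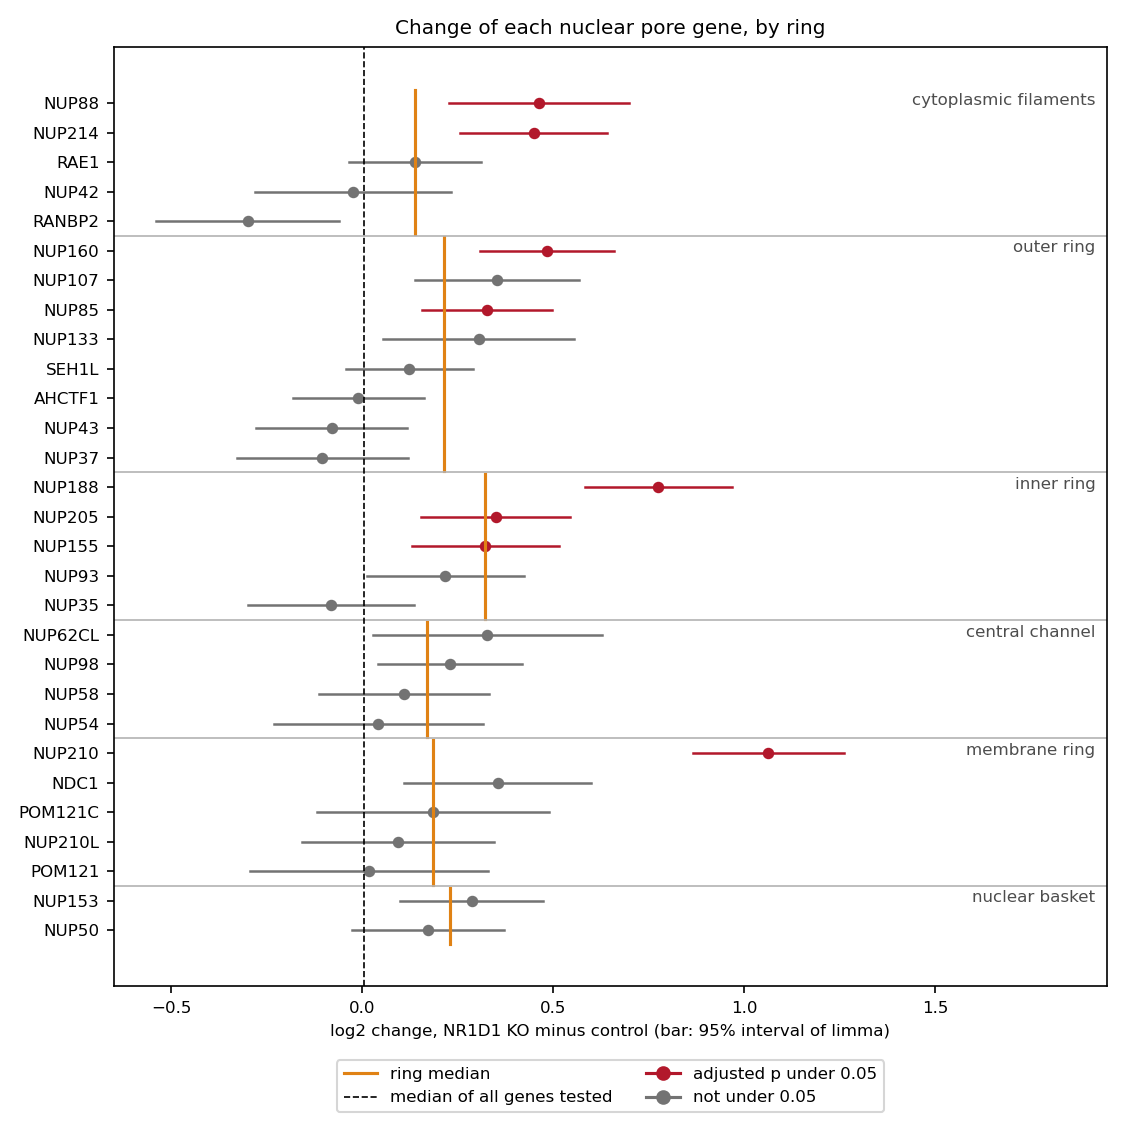
The log2 change of each pore gene (x axis, NR1D1 KO minus control, 3 arrays each) is drawn with its 95% interval from limma, in red at an adjusted p under 0.05 and in grey otherwise, with the median of each ring in orange and the median of all 14884 genes as a dashed line. The inner ring median of 0.32 is the farthest right, and within each of the filament, outer and inner rings some genes lie below 0.

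The pore genes also shared differences between arrays within groups. Replicate 2 held the highest value for 18 of the 29 genes among NR1D1 KO arrays and for 16 among control arrays. Replicate 1 held the lowest for 18 among control arrays and for 13 among NR1D1 KO arrays, where replicate 3 held it for 12. These counts were not made over all genes. The mean of the 29 genes was 8.27, 8.33 and 8.24 in NR1D1 KO arrays, against 8.001, 8.09 and 8.07 in control arrays (log2), so the groups did not overlap. Within groups the median SD of a pore gene was 0.107 in NR1D1 KO and 0.0827 in control arrays, beside 0.120 and 0.103 over all genes.

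Position on the chromosome was compared because NUP188 and NUP214 both lie on chromosome 9, 21 places apart in the order of named protein-coding genes. Of the 10 such genes on each side of NUP188, 10 of 20 rose and 1 fell, 17 had a log2 change above 0 and their median was 0.35. Of the 20 neighbours of NUP214 6 rose and none fell, with a median of 0.21. Over all genes tested 4.74% were called higher and 4.74% lower, and 51.0% had a log2 change above 0. The log2 changes of NUP188 and NUP214, 0.78 and 0.45, were thus set among neighbours that measured higher as well. The neighbours of NUP210 on chromosome 3 had a median of -0.045 and 0 of 20 were called, and those of NUP160 on chromosome 11 a median of 0.040 with 0 of 20 called. Neighbours of NUP88, NUP85, NUP205 and NUP155 had medians of 0.057, 0.0048, -0.026 and -0.090. A shared cause with the neighbours was not tested.

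**Figure D3:**
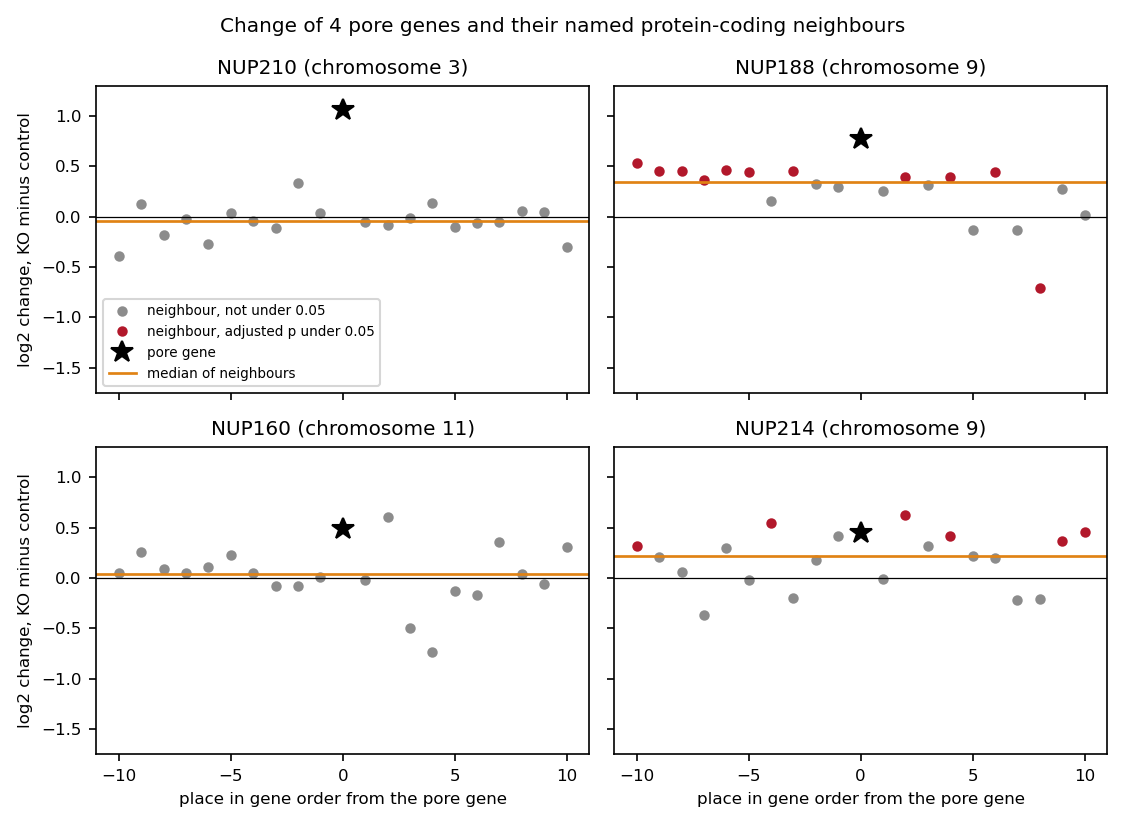
The log2 change (y axis, NR1D1 KO minus control) of 4 pore genes (stars) and of the 10 named protein-coding genes on each side (circles, red at an adjusted p under 0.05) is plotted by place in gene order (x axis), with the neighbours' median in orange. The median is 0.35 around NUP188 and 0.21 around NUP214, and near 0 around NUP210 and NUP160.

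Other genes of nuclear transport were counted in the same fit. Of 18 measured importin genes, whose products carry cargo inwards, 1 rose and 1 fell, or 5.56% in each direction beside 4.74% of all genes, with a median log2 change of 0.11. IPO8, an importin of the beta family, measured 7.82, 7.90 and 7.92 in NR1D1 KO arrays, against 7.61, 7.62 and 7.48 in control arrays (limma adjusted p = 0.0495). KPNA3, an importin alpha that reads nuclear localization signals, measured 8.78, 8.83 and 8.66 in NR1D1 KO arrays, against 9.08, 9.09 and 9.21 in control arrays (adjusted p = 0.0316). Neither group overlapped the other in these genes, but both calls were lost without any 1 array (IPO8 from 0.0638 to 0.177, KPNA3 from 0.0587 to 0.121). Of 6 exportin genes 2 rose, or 33.3% beside 4.74% of all genes, with a median of 0.23. They were RANBP17, a relative of XPO7, 1.43-fold (adjusted p = 0.00468) and XPO5, the exporter of microRNA precursors, 1.26-fold (adjusted p = 0.0361). RANBP17 passed without any 1 array, and XPO5 did not (0.0535 to 0.118). Of 6 genes of the Ran cycle, which powers transport, 1 rose, or 16.7% beside 4.74% of all genes. This was NEMP1, an inner nuclear membrane protein known in Xenopus to bind Ran, 1.41-fold (adjusted p = 0.0325). It missed the threshold without any 1 array other than NR1D1 KO replicate 3 (0.0763 to 0.105).

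Of 17 genes of messenger RNA export 1 rose and 1 fell, or 5.88% in each direction beside 4.74% of all genes, with a median log2 change of 0.070. GLE1, which activates the export helicase DDX19 at the cytoplasmic filaments, measured 8.97, 9.04 and 9.06 in NR1D1 KO arrays, against 8.56, 8.61 and 8.53 in control arrays (1.38-fold, limma adjusted p = 0.00824). It lies 9 places from NUP188 in gene order, and 19 of its 20 neighbours had a log2 change above 0, beside 51.0% of all genes. These neighbours include NUP188 and many genes already counted around NUP188, so the counts are not separate observations. THOC2, the scaffold of the THO complex that couples transcription to export, measured 8.61, 8.58 and 8.57 in NR1D1 KO arrays, against 9.17, 9.27 and 9.31 in control arrays, and fell by 0.66 on the log2 scale (adjusted p = 0.00166). Both passed without any 1 array.

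Of 20 genes of the lamina and the nuclear envelope, the surroundings of the pore, 4 rose and 1 fell. The median log2 change was 0.21. The rises were 20% of the list, beside 27.6% of pore genes and 4.74% of all genes. Changes were above 0 for 85%, beside 79.3% of pore genes. NR1D1 KO values lay above all control values for 65%, beside 62.1% of pore genes. NRM, the inner nuclear membrane protein nurim, rose 1.71-fold (limma adjusted p = 0.00133), with 8.33, 8.25 and 8.38 in NR1D1 KO arrays, against 7.47, 7.67 and 7.51 in control arrays. LMNB1, which encodes lamin B1, rose 1.61-fold (adjusted p = 0.00219), with 9.68, 9.56 and 9.52 in NR1D1 KO arrays, against 8.82, 8.90 and 8.98 in control arrays. The other called genes, named after their values were seen, were the lamin B receptor gene LBR, 1.27-fold higher (adjusted p = 0.032), the lamin A gene LMNA, 1.25-fold higher (adjusted p = 0.046), and the emerin gene EMD, which fell by 0.44 on the log2 scale (adjusted p = 0.0107). NRM and LMNB1 passed without any 1 array. LMNA passed in none of those fits (0.0635 to 0.135), LBR passed only without NR1D1 KO replicate 1 (otherwise up to 0.110), and EMD missed the threshold without control replicate 3 (0.0516).

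**Figure D4:**
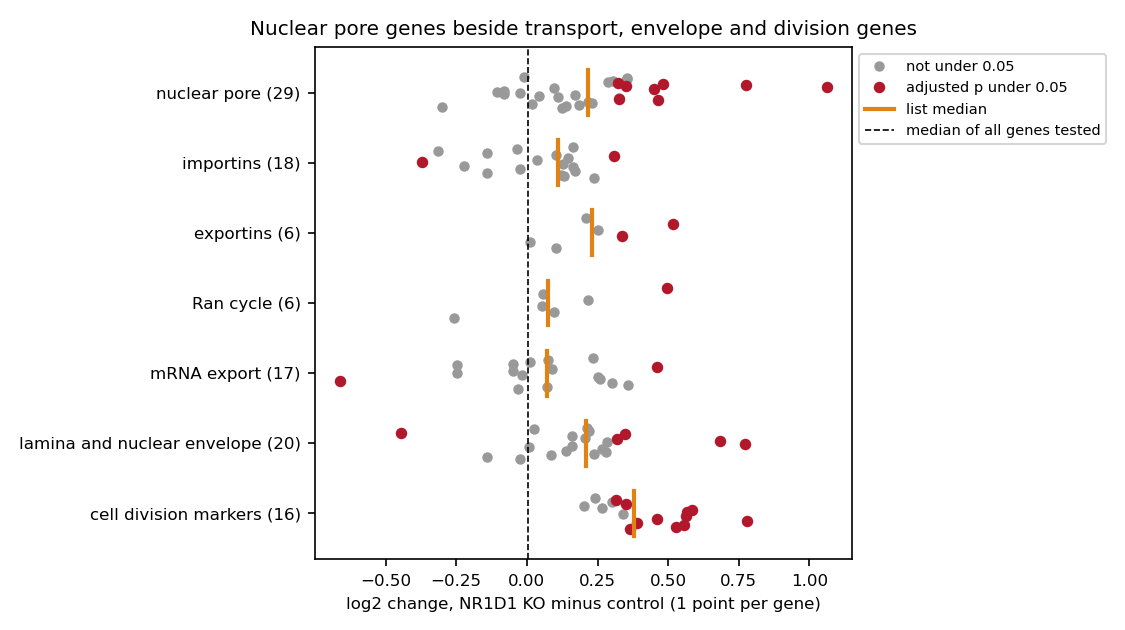
Each point is the log2 change of 1 gene (x axis, NR1D1 KO minus control, 3 arrays each) in the list named on the y axis with its number of measured genes, red at an adjusted p under 0.05, with list medians in orange and the median of all genes tested as a dashed line. Medians run from 0.070 for messenger RNA export to 0.38 for cell division markers, with 0.22 for the pore genes.

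The cell division markers, measured beside the pore genes above, had a median log2 change of 0.38, and all 16 were above 0. KIF20A, a kinesin of cell separation, rose 1.72-fold (limma adjusted p = 0.000957) and CCNB2, which encodes cyclin B2, 1.499-fold (adjusted p = 0.0303). CCNB2 did not pass when control replicate 1 or 3, or NR1D1 KO replicate 2 or 3, was left out (up to 0.102). Beside these, 8 of 29 pore genes were called, so 21 pore genes were not, and among those the 95% interval still lay above 0 for 7. Such intervals were not counted over all genes.

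**Figure D5:**
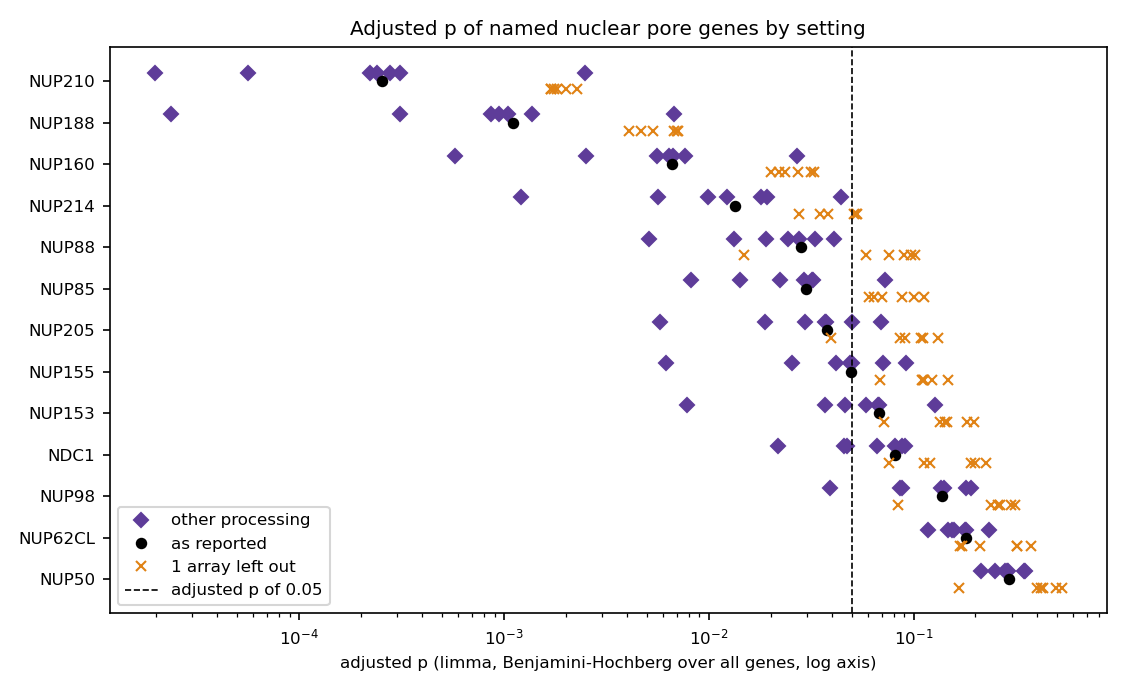
The adjusted p from limma (x axis, log scale) of 13 named pore genes (y axis) is shown as reported (black), under 7 other ways of processing (diamonds) and with 1 array left out in turn (crosses), with 0.05 as a dashed line. NUP210, NUP188 and NUP160 stay left of the line in all 13 alternatives, and the other 5 called genes cross it in some.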

How the data were processed

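The authors deposited 1 table of values for 53617 probe sets on 6 arrays, made per the labels' protocols from total RNA with GeneChip whole-transcript amplification and biotin labelling. The deposited values were taken as log2 summaries per probe set from their range (1.16 to 13.75). Array medians lay between 5.18 and 5.22, from which the arrays were taken as normalized against each other. How background was corrected, arrays normalized and probes summarized is not given in the sources used.

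A platform annotation table gave 1 symbol to 16098 probe sets and none to 37519. All 16098 matched a RefSeq gene table of GRCh38.p14, which was used for names, gene classes and gene order. The highest-mean probe set per symbol left 14884 genes, none filtered for a low level. Groups came from the labels, and limma 3.58.1 in R 4.3.3 (lmFit, eBayes, two-sided, Benjamini-Hochberg over all genes) compared NR1D1 KO with control. The fit was tested on simulated data.

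The members, rings and lists were chosen with earlier results of these data known, so lists are described by counts and medians with no set test. The neighbour comparison, the fit of single NUP214 probe sets and the count without genes that have near-identical copies were added after the data were seen. Array values are printed for every called member and for members with the smallest p up to 2 named genes a ring. They are also printed for 2 called genes each of the importin, messenger RNA export, and lamina and envelope lists. Other genes named from the lists are given without array values. The array values of NUP107 and RANBP2 were added after they were seen. Alternatives were quantile normalization, array median centring, leaving out the dimmest 25% of genes, averaging probe sets, a trend and robust prior, array weights, a replicate block and leaving out each array. Promoters were scanned and figures drawn in Python 3.11.15 (matplotlib 3.10.9). Precision is limited by the number of arrays. The median SE of a log2 change was 0.0895 for pore genes and 0.101 for all genes.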

Additional observations from a re-analysis of the deposited data

How the results depend on the processing

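With 3 arrays a group, calls near the threshold changed when 1 array was left out and with the prior. Of the 29 pore genes 8 were called as reported, 13 with a trend and robust prior (12 higher and 1, RANBP2, lower with an adjusted p of 0.0494), 10 with array weights, 11 without the dimmest 25% of genes, and 3 to 5 with 1 array left out. The totals over all genes rose and fell with these counts. They were 1412 as reported, 1953 with a trend and robust prior, 1546 with array weights and 1771 without the dimmest 25% of genes. With 1 array left out they were 723 to 1049. With the replicate block 5 pore genes and 1050 genes were called. Over all genes, deviations of same-numbered arrays correlated at 0.0547, 0.0681 and -0.106. Among the 29 pore genes replicate 2 was most often the highest in both groups, for 18 genes in NR1D1 KO and 16 in control arrays. No label says whether equal numbers mark a shared culture or day, and these values cannot settle it. NUP205, NUP155 and NUP85 missed the threshold with the block (adjusted p of 0.0694, 0.0915 and 0.0721), and NUP155 with quantile normalization (0.0706). With array median centring or averaged probe sets the same 8 pore genes were called. With quantile normalization 8 were called too, NUP153 (0.0459) in place of NUP155. Leaving out RANBP2, POM121 and POM121C, added after the data were seen, left 8 of 26. The median log2 change of all pore genes, 0.22 as reported, lay between 0.18 and 0.25 in the 13 alternatives that kept all 29 genes or dropped only dim ones. The membrane ring median, 0.19 as reported, was 0.31 without NR1D1 KO replicate 3, 0.27 without the dimmest 25% of genes and 0.13 without NR1D1 KO replicate 1. The inner ring median, 0.32 as reported, lay between 0.28 and 0.36 with 1 array left out.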

Other observations

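Pore genes known to carry FG repeats, a grouping made after their values were seen and therefore not tested, are given here beside the others by their counts. The 10 such genes were RANBP2, NUP214, NUP42, NUP98, NUP58, NUP54, POM121, POM121C, NUP153 and NUP50. Of these 1 rose, NUP214, or 10% beside 4.74% of all genes, and the median log2 change was 0.14. Of the 19 others 7 rose, or 36.8%, with a median of 0.32. RANBP2, POM121 and POM121C, whose values are uncertain because of near-identical copies, all lie among the genes with FG repeats. In both groups most changes were above 0, in 8 of 10 and in 15 of 19 genes.

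NUP153, on chromosome 6, also lay among genes that measured higher: 6 of its 20 neighbours rose and none fell, where 4.74% of all genes rose. Their median log2 change was 0.24, beside 0.29 for NUP153. A shared cause was not tested here either.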
